A study of Mus musculus with 16 samples.

Results

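Testes of Ythdc2 conditional knockout (cKO) mice were compared with control testes at postnatal day 14 (P14), in 4 of the 16 RNA libraries of the study. The members are the 2 control and the 2 cKO libraries of the P14 table that holds control rather than Cre control libraries. They were described across the 17270 genes, of 55414 gene IDs listed, that reached a value of 10 in 2 or more of the 4 libraries. All values are read counts per gene that the authors had scaled by a size factor for each library, called normalized counts here.

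Per the labels, control and cKO mice alike received tamoxifen, an agent used to switch on an inducible Cre recombinase, on both P12 and P13, given as 10 mg per ml. Whole testes were thus collected 1 day after the last dose for this comparison, and in the P16 groups of the study 3 days after it. The labels name neither the Cre line nor the alleles. The column names call these controls WT, and the control genotype is not described further. The study also holds separate Cre controls, and the sources used here do not say whether the WT controls carried Cre. An effect of Cre and the loss of Ythdc2 therefore cannot be told apart in this comparison. Ribosomal RNA was removed from all 4 libraries with Ribo-Zero components, strand-marking libraries were then made, and the 4 were sequenced in 1 run. No label says that the libraries of a group came from separate animals, so the p-values measure only the spread between these libraries, which may be technical.

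YTHDC2 is an RNA helicase with a domain that recognizes N6-methyladenosine (m6A), a methyl mark on adenosine in messenger RNA. Germ cells need it to leave the mitotic program and go through meiotic prophase. Its known partners are MEIOC, RBM46 and the exonuclease XRN1, which degrades RNA from the 5′ end. In the first wave of spermatogenesis, which the testes of young mice hold, spermatogonia enter meiosis together and successive stages of prophase appear within days of one another. The study's title concerns a late role in spermatocytes.

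Reads on genes were 22413699 and 22220565 in the controls, and 25017954 and 26585800 in cKO libraries. The second cKO library stood apart from the other 3 in its makeup. Reads outside genes took 22.5% of it and 25.6% to 28.6% of the others, and the 10 genes with most reads took 16.2% of its gene reads and 18.7% to 18.8% of theirs. The part of this difference in the results was not tested. Across all genes tested, the largest axis of variation among the 4 libraries (42.5% of variance) set library 1 of each genotype apart from library 2. Results that rest on cKO library 2 are given for each cKO library separately. In whole tissue, fewer cells of a type and less RNA per cell cannot be told apart.

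Ythdc2 (ENSMUSG00000034653) fell in the cKO testes. Its normalized count was 2027 and 2262 in the controls, against 658 and 753 in cKO, so both cKO libraries lay far below both controls. The mean in cKO was 32.9% of the control mean. The log2 change was -1.60 (SE 0.090, 95% interval -1.82 to -1.39, limma adjusted p = 0.0148, lower in 2 of 2 cKO libraries). It was the only gene called, that is, with an adjusted p under 0.05, and 1 gene is 0.00579% of those tested. The call did not hold without control library 1 (limma adjusted p = 0.0829) or without control library 2 (0.289).

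No gene was called higher in cKO (0% of those tested). At an unadjusted limma p under 0.05 there were 186 genes higher (1.08%) and 224 lower (1.30%), 410 in all (2.37%). That total was 1300 without cKO library 1, 777 without cKO library 2 and 225 without control library 2. Groups did not overlap for 2600 genes in the higher direction (15.1%) and for 2508 in the lower (14.5%). edgeR called Ythdc2 alone (0% higher, 0.00579% lower) and had 444 genes at an unadjusted p under 0.05. DESeq2 called 3 genes higher (0.0174%), which were Aqp1, Lars2 and Meioc, and 3 lower (0.0174%), which were Ythdc2, Ndor1 and Hbb-bs.

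The spread of the libraries still left most genes with a narrow range of change. For 14818 genes (85.8%) the 95% interval of the change lay within a 2-fold difference in either direction, and for 11802 (68.3%) within 1.5-fold. Among the 12076 genes with a mean of at least 100, the group means were over 1.5-fold apart for 48. The 2 controls were that far apart for 114 of these genes, and the 2 cKO libraries for 243. Single libraries vary more than means of 2, so these counts are a description.

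**Figure D1:**
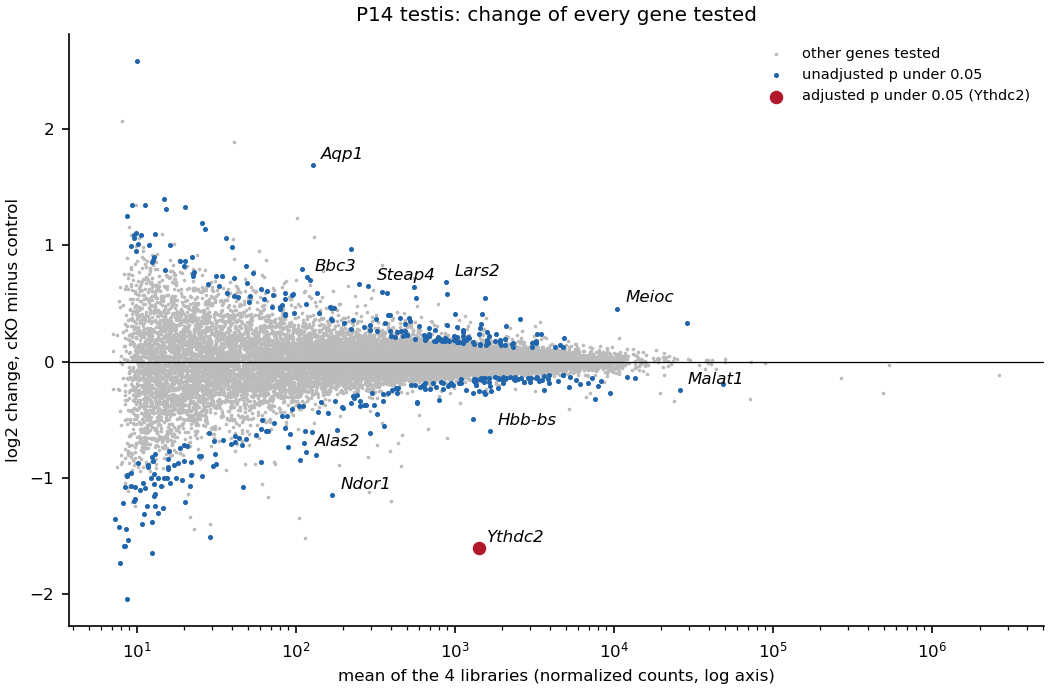
Each point is a gene tested at P14, with the mean normalized count of the 4 libraries on the x axis (log) and the log2 change of cKO over control on the y axis. Blue points have an unadjusted p under 0.05, and Ythdc2 in red, at -1.60, is the only gene with an adjusted p under 0.05.

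The 8 genes with the smallest p among those higher in cKO, with non-overlapping groups and a mean of at least 100, were Aqp1, Lars2, Angptl2, Thbd, Steap4, Ermp1, Lgals9 and Bbc3. Aqp1, which encodes a water channel, was at 73.2 and 48.8 in the controls and 218 and 175 in cKO. Its log2 difference was 1.69 (SE 0.23, limma unadjusted p = 2.42e-04 and adjusted p = 1.00, DESeq2 adjusted p = 7.71e-04). Lars2, the mitochondrial leucyl-tRNA synthetase, was at 722 and 629 against 993 and 1177, a difference of 0.68 (DESeq2 adjusted p = 0.00442). Both cKO libraries were above both controls for each of these genes.

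The other 6 genes differed by 0.36 to 0.72. Angptl2, which encodes a secreted angiopoietin-like protein, stood at 857 and 872 in the controls and 1192 and 1100 in cKO. Thbd (thrombomodulin, an endothelial anticoagulant receptor) stood at 2224 and 2252 against 3039 and 2728. The controls lay within a few percent of each other for this pair of genes. Steap4, a metalloreductase, was at 229 and 217 against 381 and 321. Lgals9, which encodes a galectin, was at 287 and 312 against 404 and 503. Ermp1, a peptidase of the endoplasmic reticulum, was at 1342 and 1200 against 1605 and 1767. The 8 log2 differences ran from 0.36 for Thbd to 1.69 for Aqp1, and none passed the limma threshold. Angptl2 overlaps Ralgps1 on the other strand, and the strand setting of the counting is not given in the sources used here.

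Among the genes lower in cKO, the same rule gave Ythdc2, Ndor1, Tex11, Malat1, Hbb-bs, Rnf208, Alas2 and Ugt8a. Meiosin had a smaller p than the last 4 of these, but the rule leaves out clone names, and the gene table lists it as one (Gm4969). It is described with the genes of meiotic entry. Ndor1 encodes a flavin-containing reductase that passes electrons to the machinery for cytosolic iron-sulfur clusters. It was at 225 and 244 in the controls and 108 and 102 in cKO, 44.8% of the control mean. The log2 difference was -1.15 (SE 0.13, limma unadjusted p = 8.28e-05 and adjusted p = 0.715, DESeq2 adjusted p = 0.0126). Ndor1 overlaps Tmem203 on the other strand and a second ID of the same name on its own strand, so its reads may be split. Rnf208, a ubiquitin ligase gene, was at 218 and 217 against 152 and 137.

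Tex11, which encodes a meiosis-specific crossover protein, was at 3925 and 3958 against 3374 and 3259. The difference was small at -0.25 (SE 0.049, limma unadjusted p = 0.00179, adjusted p = 1.00), and the libraries of each genotype were close together. Malat1, a long noncoding nuclear RNA, was at 28038 and 28398 against 24209 and 23413, a difference of -0.25. Ugt8a, which encodes the galactosyltransferase that makes the lipid galactosylceramide, was at 1432 and 1430 against 1157 and 1217. In all 3 genes the gap between genotypes was larger than the gap within either. Hbb-bs and Alas2 are described with the red blood cell genes.

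**Figure D2:**
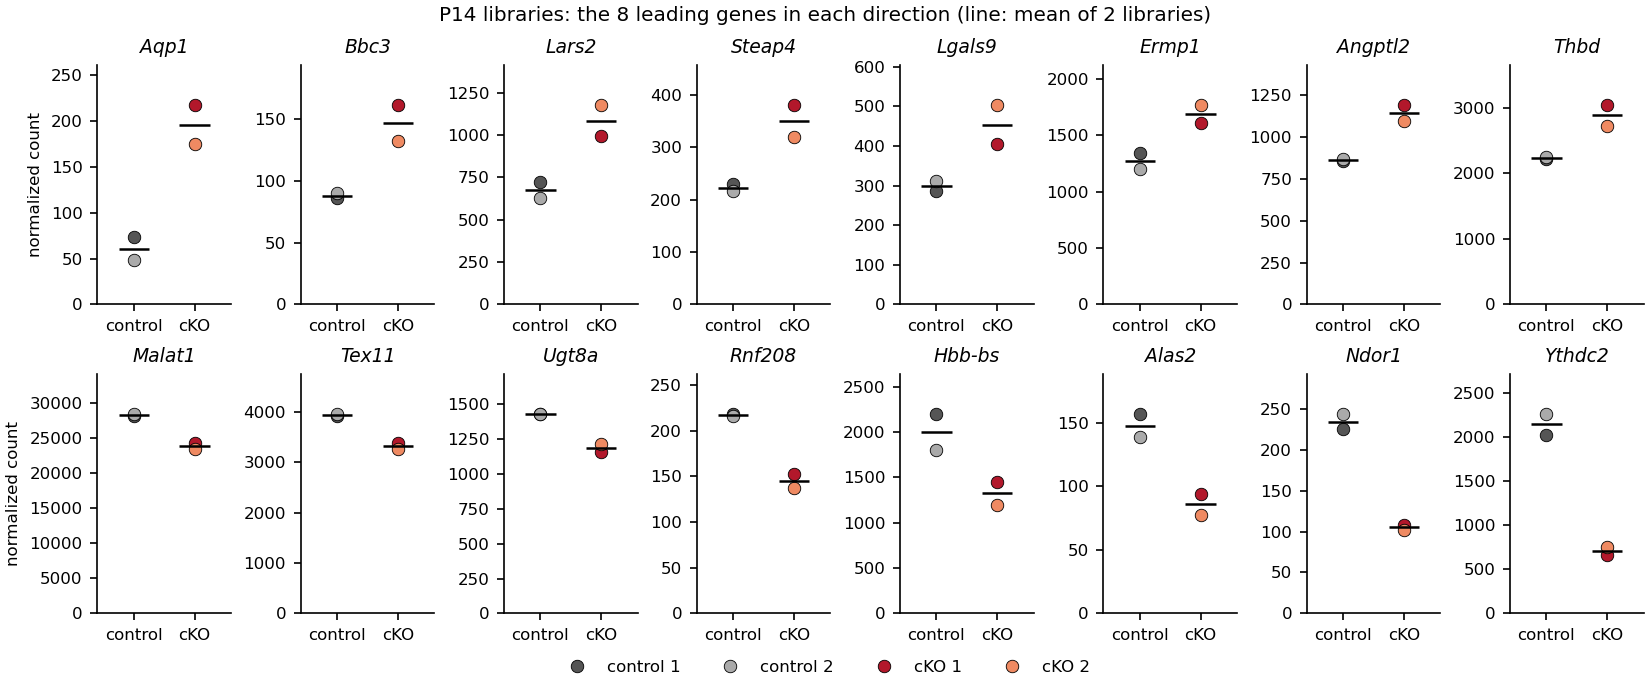
Each panel shows 1 gene, with normalized counts from 0 on the y axis, a point for each of the 4 P14 libraries and a line at the mean of each genotype. The upper row holds the 8 leading genes higher in cKO and the lower row the 8 lower ones; the groups do not overlap because the rule required it, and Ythdc2 has the only adjusted p under 0.05.

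The genes for YTHDC2's partners were next. Meioc was at 8484 and 9153 in the controls and 10679 and 13658 in cKO, with both cKO libraries higher and wide apart. Its difference was 0.45 (SE 0.11, limma unadjusted p = 0.00548, adjusted p = 1.00, DESeq2 adjusted p = 0.0181). Rbm46, whose product binds RNA with MEIOC and YTHDC2, was at 2535 and 2555 against 2593 and 3079, a difference of 0.15 that rested mainly on cKO library 2. Xrn1 was at 1603 and 1662 against 1620 and 1574, and its groups overlapped.

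Of the 24 genes of partners and cytoplasmic RNA decay (the deadenylase, decapping and exosome subunits), 13 were higher and 11 lower, against 53.6% higher and 46.4% lower over all genes. Their median difference was 0.01, as over all genes. Meioc was the only one at an unadjusted p under 0.05, and the changes ran from -0.10 for the exosome nuclease Dis3 to 0.45 for Meioc. The 12 genes that write or erase m6A and the 9 that read it lay between -0.10 (the demethylase Alkbh5) and 0.12 (Cbll1, a subunit of the writer complex). None of these genes had an unadjusted p under 0.05. The readers Ythdf1, Ythdf2 and Ythdf3 differed by 0.01, -0.01 and 0.09, and Ythdc1, the nuclear relative of Ythdc2, by -0.03.

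Genes of the stages before and at meiotic entry were mostly a little lower in cKO. Among 20 genes of undifferentiated spermatogonia, 13 were lower and 7 higher, with a median of -0.08. Zbtb16, which encodes the stem cell factor PLZF, was at 1420 and 1505 against 1296 and 1239 (-0.21, limma unadjusted p = 0.0157). Lin28a, an RNA-binding protein of these cells, was at 1153 and 1112 against 1003 and 992 (-0.18, unadjusted p = 0.0237). Utf1, a chromatin factor of early spermatogonia, went the other way from a low level, with 6.46 and 5.42 against 18.4 and 15.01 (1.35, limma unadjusted p = 0.00799). Groups did not overlap for 8 of the 20 in the lower direction, against 14.5% of all genes, and for 2 in the higher, against 15.1%.

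Of 16 genes of differentiating spermatogonia and meiotic entry, 12 were lower and 4 higher, with a median of -0.03. Meiosin, named Gm4969 in the gene table used, encodes the factor that acts with STRA8 to switch on the meiotic genes. It was at 1718 and 1683 in the controls and 1392 and 1417 in cKO, so both cKO libraries lay below both controls by a gap wider than the spread within either group. The difference was -0.28 (SE 0.056, limma unadjusted p = 0.00204, adjusted p = 1.00). Prss50, a testis protease, was at 2445 and 2605 against 2173 and 2344 (-0.16). Stra8 itself was at 2807 and 2610 against 2541 and 2542 (-0.09, unadjusted p = 0.161), and Kit, the receptor of differentiating spermatogonia, differed by -0.01. Of 16 genes for the synthesis, transport and receptors of retinoic acid, the signal for meiotic entry, none had an unadjusted p under 0.05, and their median was -0.02.

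Genes for the programmed DNA double-strand breaks that open recombination were lower in 9 of 11 cases, with a median of -0.12. The 4 at an unadjusted p under 0.05 were Zcwpw1, Mei1, Iho1 and Prdm9, which is 36.4% of the list. Over all genes, 1.30% were lower at that p. Prdm9, the histone methyltransferase that places the breaks, was at 873 and 868 in the controls and 772 and 766 in cKO. Zcwpw1, the reader of the marks PRDM9 lays down, was at 4315 and 4092 against 3688 and 3700. Mei1, needed for break formation, was at 818 and 818 against 682 and 726. Spo11, which encodes the enzyme that cuts, was at 464 and 536 against 418 and 557, and its groups overlapped. The medians were -0.17 for cKO library 1 and -0.06 for cKO library 2. The fall of the list was thus larger in cKO library 1.

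Among 14 genes of the chromosome axis and synaptonemal complex, the protein ladder that joins homologous chromosomes, 10 were lower and 4 higher. The cohesin subunit Rad21l was at 942 and 827 against 684 and 721 (-0.33, limma unadjusted p = 0.00762). Syce2, of the central element of the ladder, was at 2134 and 2103 against 1879 and 1906 (-0.16), and the cohesin partner Stag3 differed by -0.14. These 3 were the members at an unadjusted p under 0.05 (21.4%, against 1.30% of all genes lower at that p). The main ladder gene Sycp1 was at 15396 and 16904 against 14297 and 17584, and Sycp3 at 10133 and 10717 against 9270 and 11502. In both genes cKO library 1 was the lowest and cKO library 2 the highest of the 4. The medians of the list were -0.17 in cKO library 1 and 0.11 in cKO library 2.

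The 2 cKO libraries parted in the same way in other meiotic lists. For 20 genes of strand invasion and crossover formation the medians were -0.10 and 0.12. Tex11 was lower in both libraries and Mlh3, a mismatch repair gene of crossovers, higher in both, at 1257 and 1341 against 1452 and 1607. The recombinase Dmc1 was at 1999 and 1943 against 1737 and 1978. For 14 genes of telomere attachment to the nuclear envelope the medians were -0.02 and 0.09, with 0 at an unadjusted p under 0.05. For 20 genes of the piRNA pathway, which silences transposons, the medians were -0.10 and 0.16, and Tex15 (-0.13) alone was at that p. Among 15 transcription factors of spermatocytes, Taf7l was lower in both libraries (6502 and 6692 against 5757 and 5772, limma unadjusted p = 0.00482). Mybl1, which starts the pachytene program, was at 2422 and 2542 against 2592 and 2987.

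Among the germ cell lists the parting was widest in genes of pachytene and later cells. Of 20 tested, 17 were higher, and their median was -0.07 in cKO library 1 and 0.59 in cKO library 2. Control library 1 relative to control library 2 had a median of -0.15. Ldhc, the sperm lactate dehydrogenase, was at 2221 and 2463 in the controls, 1955 in cKO library 1 and 4034 in cKO library 2. Adam2, a sperm surface protein, was at 660 and 755 against 820 and 1366, and Zpbp, of the acrosome, at 435 and 480 against 546 and 820. For Ldhc 1 cKO library was below both controls and the other far above them. Adam2 and Zpbp were the 2 members at an unadjusted p under 0.05 (10%, against 1.08% of all genes higher at that p). Both were farther above the controls in cKO library 2 than in cKO library 1. The genes of spermatids Tnp2, Prm1 and Prm2 had no read in any of the 4 libraries.

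Genes chosen for their rise from P14 to P16 in other libraries showed the same parting. From P14 to P16, 885 genes tested here rose by a log2 change over 1 in the Cre controls (2 and 4 libraries, limma adjusted p under 0.05), which share no library with the comparison. Among all 18819 genes tested there, 9.06% rose from P14 to P16 and 2.75% fell. By the column names, only 1 of these P16 Cre controls was sequenced in the run of the P14 ones. Age and run therefore cannot be fully told apart in this choice. At P14 the 885 genes had a median of -0.09 in cKO library 1 and 0.48 in cKO library 2. The same genes had a median of -0.13 in control library 1 relative to control library 2. With the genes chosen within 1 run, from both P14 Cre controls and 1 P16 Cre control, there were 1525 and the medians were -0.07 and 0.36. For the 511 genes called lower at P16 than at P14 in Cre controls, both cKO libraries were on the same side, with medians of -0.02 and -0.09. Of those, 208 had non-overlapping groups in the lower direction (40.7%, against 14.5% of all genes) and 33 in the higher (6.46%, against 15.1%). Among genes chosen within 1 run, 257 were lower at P16 than at P14 by a log2 difference over 1, with no test. Their medians were on opposite sides, 0.05 in cKO library 1 and -0.11 in cKO library 2. Groups did not overlap for 19.5% of them in the lower direction and for 12.5% in the higher.

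Cell division genes differed little. Of 23 genes of the mitotic cycle 17 were lower and 6 higher, with a median of -0.05 and 0 at an unadjusted p under 0.05. The replication helicase subunit Mcm5 was at 4678 and 4857 against 4352 and 4435, and the topoisomerase Top2a at 16632 and 16900 against 15013 and 16047. Both cKO libraries were below both controls for 9 of the 23, against 14.5% of all genes. Of 27 genes for tubulins and microtubule motors, which move telomeres along the nuclear envelope in meiotic prophase, 24 were higher, with a median of 0.07. The largest difference was 0.58 for Tubb2b, a beta tubulin gene at a low level (23.7 and 27.1 against 47.6 and 30.9). None of them had an unadjusted p under 0.05.

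**Figure D3:**
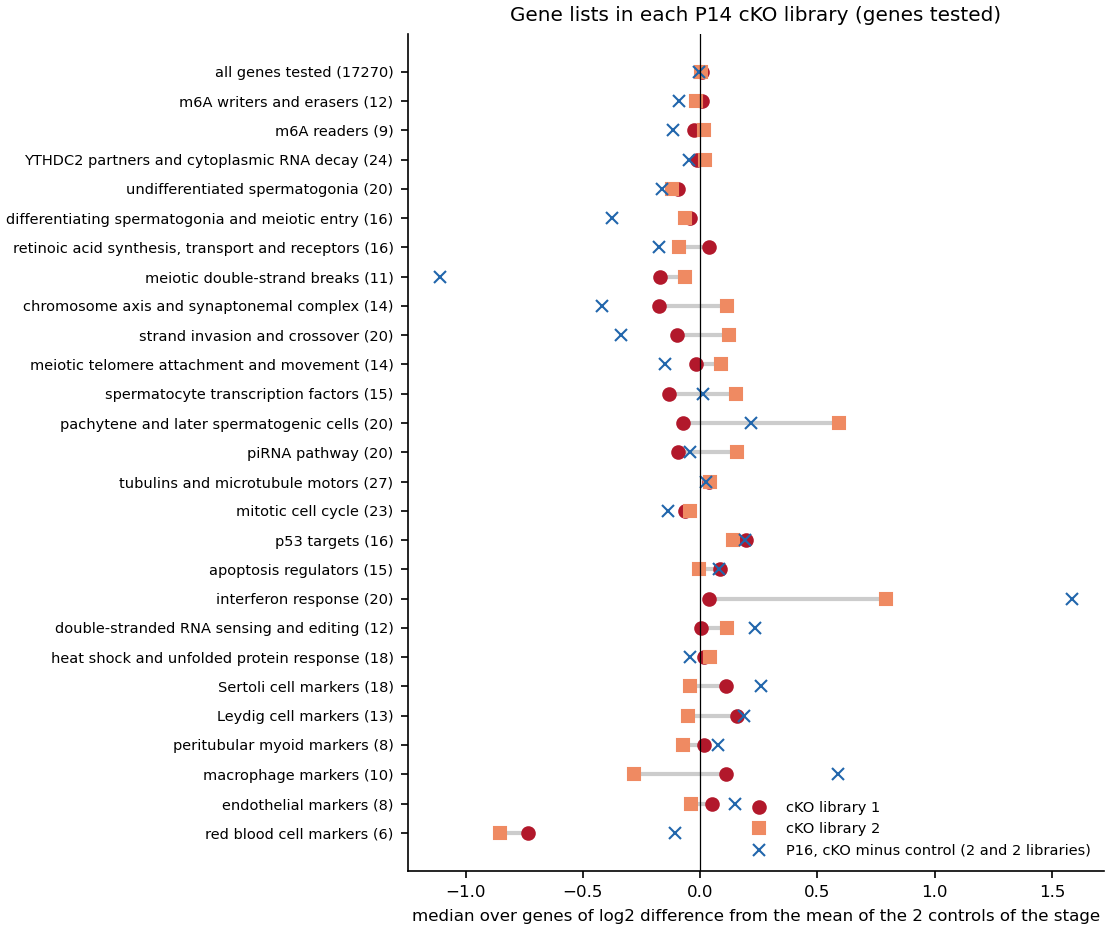
Each row is a gene list with the number of genes tested, and the x axis is the median log2 difference from the mean of the 2 controls of the stage. The red circle is cKO library 1, the orange square cKO library 2 and the blue cross the P16 comparison; the squares and circles lie apart for pachytene (0.59 and -0.07) and interferon response genes (0.79 and 0.04), and together for red blood cell markers.

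Genes activated by p53, the factor that responds to DNA damage, were higher in 14 of 16 cases, with medians of 0.20 in cKO library 1 and 0.14 in cKO library 2. Bbc3, which encodes the cell death protein PUMA, was at 86.1 and 90.0 in the controls and 161 and 132 in cKO (0.72, SE 0.17, limma unadjusted p = 0.00394, adjusted p = 1.00). The cyclin gene Ccng1 was at 1488 and 1423 against 1782 and 1680 (0.25). Phlda3, an inhibitor of AKT, was at 346 and 302 against 421 and 391, and Trp53inp1 differed by 0.16. These 4 of the 16 were at an unadjusted p under 0.05, against 1.08% of all genes higher at that p. Groups did not overlap for 7 in the higher direction, against 15.1% of all genes, and for 1 in the lower, against 14.5%. Cdkn1a, the p21 gene, was at 93.7 and 57.4 against 101 and 91.8, and its groups overlapped. Trp53 itself differed by -0.01.

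Among 15 regulators of apoptosis 9 were higher and 6 lower, and none had an unadjusted p under 0.05. Apaf1, the core of the apoptosome, was at 1254 and 1255 against 1416 and 1338. The 18 genes of heat shock and the unfolded protein response had a median of 0.02 and also none at that p. Their largest difference was 0.21, for Ddit3, which encodes the stress factor CHOP, at 235 and 264 against 271 and 306.

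Interferon response genes are switched on by IRF factors and their complexes, which bind a repeated GAAA element. The motif searched was GAAA, any 2 bases, then GAAA. Read on both strands in the 250 bases before each gene's start, it was in 978 of 32851 RefSeq promoter windows (2.98%), or in 936 of 27025 genes (3.46%). Of the 14 genes of the list that the promoter table holds, 8 had it, and 7 of the 21 listed were not in that table. The first match in each window is in capitals in the stretches printed here, which come from genes whose P14 values are given next. The windows held 2 matches for Ifit1, 2 for Ifit3, 3 for Isg15 and 1 for Rsad2. Further matches in the stretches of Ifit1 and Isg15 are in lower case. A match in this window is a description and not a measured binding site, and on the other strand it reads as TTTC, 2 bases, TTTC. The coordinates are those of GRCm38.p6, whereas the submitters' processing notes name GRCm39. The stretches are chr19:34640760-34640819 (plus strand), chr19:34583348-34583407 (plus), chr4:156200862-156200921 (minus) and chr12:26456538-26456597 (minus).
Ifit1: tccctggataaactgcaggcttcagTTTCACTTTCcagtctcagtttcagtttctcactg
Ifit3: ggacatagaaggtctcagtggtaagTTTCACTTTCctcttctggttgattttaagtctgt
Isg15: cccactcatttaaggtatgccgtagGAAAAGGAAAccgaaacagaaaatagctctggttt
Rsad2: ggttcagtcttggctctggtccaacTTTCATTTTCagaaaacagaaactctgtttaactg

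These genes varied at least as much between the controls as between the genotypes. Ifit1, whose product binds foreign RNA, was at 32.3 and 88.9 in the controls and 75.7 and 214 in cKO. Isg15, a ubiquitin-like modifier, was at 11.8 and 36.8 against 20.4 and 48.6. In both genes cKO library 1 lay between the controls and cKO library 2 above them. Ifit3 was at 35.5 and 145 against 95.2 and 245, but its reads cannot be told from those of the near-identical Ifit3b with certainty. Rsad2, the antiviral enzyme viperin, was at 52.8 and 58.5 against 50.5 and 72.4, and its groups overlapped.

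Of the 20 interferon response genes tested, 17 were higher by the mean of the groups, with a median of 0.40. The median was 0.04 in cKO library 1 and 0.79 in cKO library 2, and control library 1 lay 0.97 below control library 2. The summed normalized counts of the list were 4153 and 7062 in the controls and 5211 and 6970 in cKO. Groups did not overlap for 3 of the 20, which were Usp18, Ifi27 and Mx2, against 15.1% of all genes. Only Usp18, which dampens interferon signaling, had an unadjusted p under 0.05 (57.1 and 106 against 118 and 157). Without control library 1 the median was -0.08, and without control library 2 it was 0.92. Among 12 sensors and editors of double-stranded RNA none had an unadjusted p under 0.05.

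**Figure D4:**
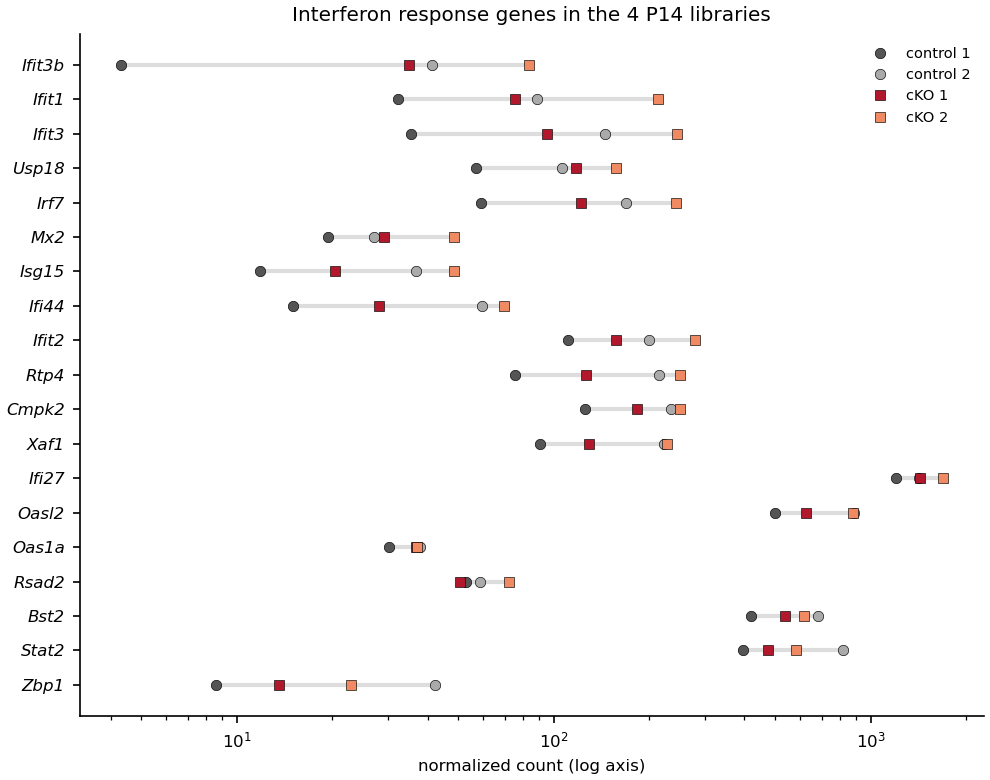
Rows are interferon response genes tested at P14, all but 1 of the list, with the normalized count on a log x axis and a point for each library. The light gray circle of control 2 lies to the right of the dark circle of control 1 in every row, and the red square of cKO 1 lies between the controls in most.

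Red blood cell genes were lower in every member tested. Both beta globin genes, both alpha globin genes, Alas2 and Slc4a1 had an unadjusted p under 0.05 and non-overlapping groups, 6 of 6. Over all genes, 1.30% were lower at that p and 14.5% had non-overlapping groups in the lower direction. Hbb-bs, an adult beta globin, was at 2200 and 1804 in the controls and 1454 and 1193 in cKO (-0.60, SE 0.12, limma unadjusted p = 0.00230, adjusted p = 1.00, DESeq2 adjusted p = 0.00776). Alas2, which starts heme synthesis in red cells, was at 157 and 139 against 94.2 and 77.7 (-0.78). The medians were -0.73 in cKO library 1 and -0.85 in cKO library 2. The summed counts of the list were 3095 and 2551 against 2003 and 1657. The globin pairs are near-identical copies among which reads may be split, and the amount of blood in each testis was not tested. Alas2 also overlaps Apex2 on the other strand.

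Markers of the somatic cells of the testis were near the controls. The 18 Sertoli cell markers had a median of 0.03, with Sox9, which defines these cells, at 2076 and 2167 against 2261 and 2059. The 13 Leydig cell markers tested had a median of 0.06, the 8 peritubular myoid markers -0.07 and the 8 endothelial markers -0.02. Of 10 macrophage markers 9 were lower, but cKO library 1 was above the controls by a median of 0.11 and cKO library 2 below by 0.28 (median -0.28). None of these somatic markers had an unadjusted p under 0.05. The adult Leydig cell hormone Insl3 had at most 2 reads in a library.

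The P14 values were then set beside those of P16, where 18.6% of 17986 genes rose in cKO and 19.9% fell (limma adjusted p under 0.05). Of the 17045 genes tested at both stages, 3274 rose (19.2%) and 3527 fell (20.7%). The stages share no library. Of the 182 genes at an unadjusted p under 0.05 higher at P14 and tested at P16, 98 rose at P16 (53.8%) and 11 fell. Of the 210 lower ones, 101 fell at P16 (48.1%) and 10 rose. Of the 8 leading genes higher at P14, 6 rose at P16, and Lars2 and Bbc3 were not called. Of the 8 lower ones, 5 fell, Hbb-bs and Alas2 were not called, and Malat1 rose by 0.65.

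Genes with a large change at P16 mostly had a small one at P14. Of the 239 genes that fell by a log2 change over 1 at P16, 174 were lower at P14, with a median of -0.09. Of the 239, 80 had non-overlapping groups in the lower direction (33.5%, against 14.5% of all genes). At an unadjusted p under 0.05, 30 were lower (12.6%, against 1.30% of all genes) and 0 higher (against 1.08%). Of the 179 genes that rose by over 1 at P16, 104 were higher at P14, with a median of 0.08. At an unadjusted p under 0.05, 14 were higher (7.82%, against 1.08% of all genes) and 1 lower (0.559%, against 1.30%). The interaction of genotype and stage passed the test for 164 of these 418 genes, against 8.03% of all genes in that fit. The 418 were chosen for their P16 change.

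The 6 largest falls at P16 were those of Ythdc2, Ctcfl, Eaf2, Mei1, Hist3h2ba and Ugt8a. All 6 were already lower in both cKO libraries than in both controls at P14, with a median of -0.25 against -1.86 at P16. Over all genes, 14.5% had non-overlapping groups in that direction at P14. Ctcfl, the germ cell paralog of the chromatin factor CTCF, was at 393 and 388 in the P14 controls and 319 and 323 in cKO (-0.28, limma unadjusted p = 0.0192). At P16 it fell by 2.12 on the log2 scale. Hist3h2ba, a histone H2B gene, was at 3667 and 3486 against 3181 and 3174 at P14 (-0.17) and fell by 1.83 at P16. Eaf2, which encodes a factor of transcription elongation, was at 192 and 166 against 160 and 142 at P14. Ctcfl overlaps Ctcflos and Eaf2 overlaps Iqcb1 on the other strand.

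The 6 largest rises at P16 were those of Ifit1, Ifit3, Irf7, Ifi27l2a, Pif1 and Iigp1, most of them interferon response genes. At P14 5 of the 6 were higher, only Ifi27l2a had non-overlapping groups, and 0 had an unadjusted p under 0.05. Irf7, the factor that amplifies the interferon response, was at 59.2 and 169 in the controls and 122 and 243 in cKO. Pif1, a DNA helicase, was at 68.9 and 68.3 against 83.5 and 60.9 at P14 (0.06), and rose by 1.99 at P16. Iigp1, an interferon-inducible GTPase, was at 74.3 in control library 1, 1400 in control library 2 and 142 and 213 in cKO.

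**Figure D5:**
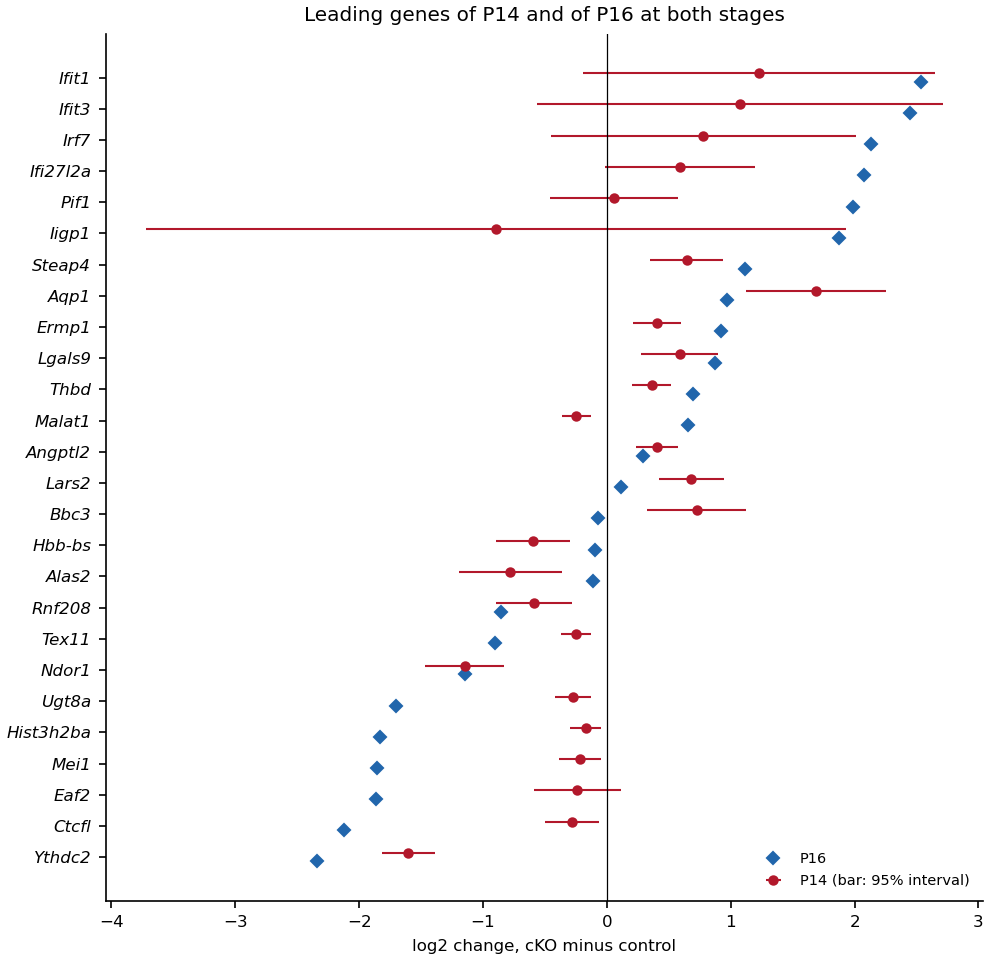
Rows are the leading genes of P14 and the genes with the largest changes at P16, and the x axis is the log2 change of cKO over control. Red points are P14 with 95% intervals and blue diamonds are P16 without intervals; Ctcfl, Eaf2, Mei1, Hist3h2ba and Ugt8a lie between -0.28 and -0.17 at P14 and at -1.70 or lower at P16, and Malat1 changes side.

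The interaction of genotype and stage was fitted over the control and cKO libraries of this kit, 8 in all. Of 18379 genes, 1475 differed (8.03%), with 513 effects higher at P16 (2.79%) and 962 lower (5.23%). The double-strand break genes had lower effects at P16 in 9 of 11 cases, those of meiotic entry in 7 of 16, and those of strand invasion and crossover in 7 of 20. Sertoli cell markers had higher effects at P16 in 7 of 18 cases and macrophage markers in 5 of 10. For Ythdc2 the effect at P16 minus that at P14 was -0.73 (SE 0.12, limma adjusted p = 0.00762), and for Meioc it was 0.66 (SE 0.15, adjusted p = 0.0289). The Ythdc2 call was lost without P16 control library 1 (0.0511). The Meioc call was lost without any 1 of the 6 libraries other than the P14 cKO ones (0.0566 to 0.109).

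The number of interactions depended on single libraries. It was 1175 higher and 2032 lower without P14 cKO library 1, and 251 and 439 without P14 control library 1. It was 100 and 389 without P14 control library 2, 68 and 332 without P16 cKO library 1, and 176 and 515 without P16 cKO library 2. Without P16 control library 1 it was 51 and 253, and without P16 control library 2 it was 58 and 230. The effect on Malat1 differed by 0.90 (SE 0.064, limma adjusted p = 1.53e-04). The effect on Meiosin differed by -1.53 (SE 0.096, limma adjusted p = 1.05e-04).

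The third P14 cKO library was made with another depletion kit and is set here beside the 2 Cre controls of that kit, with no test. It lay above both Cre controls for 30.6% of 15826 genes and below both for 29.7%. Ythdc2 had 270 reads in it and 1173 and 1181 in the Cre controls, a log2 difference of -2.10. In a separate fit of the 7 P14 libraries of both kits, with kit as a covariate, Ythdc2 changed by -1.81 (limma adjusted p = 0.00170). In the third cKO library, 4 of the 8 leading higher genes were above both Cre controls (Aqp1, Angptl2, Thbd and Steap4) and 2 below both (Lars2 and Ermp1). Aqp1 had 53 and 84 reads in the Cre controls and 120 in cKO. The Cre controls were far apart for Thbd, with 484 and 1626 reads against 1933 in cKO, and for Angptl2, with 224 and 578 against 711. Lars2 had 1546 and 2792 reads against 355, a log2 difference of -2.52. Of the 8 leading lower genes, 4 were below both (Ythdc2, Tex11, Malat1 and Ugt8a) and 2 above both (Hbb-bs and Rnf208). Ndor1 differed by 0.12. The red blood cell genes had a median of 0.02 there, the p53 targets 0.08 and the double-strand break genes -0.17, with 10 of those 11 below both Cre controls. For undifferentiated spermatogonia the median was -0.01, with 8 genes above both Cre controls and 4 below. For differentiating spermatogonia and meiotic entry it was 0.02, with 8 above both and 5 below. The genes of pachytene and later cells had a median of -0.30, with 12 of 17 below both Cre controls and 2 above, the opposite side from cKO library 2. Kit, control type and library cannot be told apart in these differences from the first kit.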

How the data were processed

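RNA-seq values of whole mouse testis were used as the authors deposited them. Per the file headers and column names the values rest on STAR gene counts of first mates, and the deposited values are a signal, namely reads divided by a size factor per library. The submitters' processing notes name Trim Galore, STAR, HTSeq, DESeq2 and GRCm39. Versions, annotation release and strand setting are not given in the sources used here. Whole reads were recovered from these values (100% came out whole, tolerance 0.01). The 4 summary rows were left out, and they held 53.4% to 61.4% of all reads in the 4 libraries. The 4 libraries listed in 2 tables had identical reads and were counted once. Gene names came from GENCODE M21 (52081 of 55414 IDs). Promoter windows came from RefSeq for GRCm38.p6, so no other coordinates are given.

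The main test was limma 3.58.1 (eBayes with trend, R 4.3.3) on log2(value + 1), two-sided, with Benjamini-Hochberg adjustment over all genes that reached 10 in 2 or more libraries. Log2 changes are on that scale, which understates changes of low genes. On the recovered reads, edgeR 4.0.16 called 1 gene and DESeq2 1.42.0 called 6. The interaction of genotype and stage used limma over 8 libraries, on CPM after TMM scaling, in log2 with a prior count of 1. The fits were tested on simulated data. Alternatives were other pseudocounts, filters, scalings, tools, sets of libraries, the replicate number as a block, and leaving out each library. Medians of outside gene sets without each library, and the choice of such genes within 1 run, were added after seeing the data.

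Named are Ythdc2, Meioc, Rbm46 and Xrn1, genes called by any tool, the 8 genes in each direction with the smallest p (mean of at least 100, groups not overlapping, no clone name), the 2 with the smallest p in each list, and the 6 largest P16 changes in each direction. Of the interferon list, 1 member is counted but not reported here by name or plotted. Other list members were named after their values were seen. The comparison, the 26 lists (398 of 410 genes tested) and these rules were chosen with earlier results of these data known.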

Additional observations from a re-analysis of the deposited data

Results flagged for a closer look

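The difference of the cKO effect between P16 and P14 passed the interaction test (limma adjusted p under 0.05) for 28 of the 75 named genes, against 8.03% of all genes. The values below are the effect at P16 minus that at P14, on the log2 scale. The genes named for their change at P16 were chosen partly for this difference, so their values are descriptions.

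Named genes of the germ cell lists with a lower effect at P16 were these. The difference was -1.53 for Meiosin, -1.49 for the protease Prss50, -0.92 for Zcwpw1 and -1.64 for Mei1. It was -0.77 for Syce2, -1.26 for Rad21l, -0.66 for Tex11, -0.60 for Tex15 and -0.58 for Taf7l. All 9 were also lower at P14, by 0.33 or less in log2 size, with Rad21l at -0.33. Other genes with a lower effect at P16 were Ctcfl (-1.84), Hist3h2ba (-1.66), Eaf2 (-1.63), Ugt8a (-1.43), Mcm5 (-0.79), the RNA editing enzyme Adarb1 (-0.75) and Ythdc2 (-0.73). The m6A demethylase Alkbh5 (-0.30) and the exosome nuclease Dis3 (-0.35) were among them with smaller differences.

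Effects were higher at P16 for Pif1 (1.93), Ifi27l2a (1.49), Zpbp (0.86), Meioc (0.66), Ermp1 (0.52) and the m6A reader Igf2bp3 (0.66). They were higher by 1.01 for Gdnf, the Sertoli cell growth factor of spermatogonial stem cells, which was at -0.17 at P14 and 0.84 at P16. The macrophage genes Lyz2 (1.17) and C1qb (0.84) were lower at P14 with overlapping groups, and rose at P16. Malat1 (0.90) was at -0.25 at P14 and 0.65 at P16, with no overlap of the genotypes at P14.

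Of the 28 calls, 18 held without each of the 8 libraries in turn, and 10 did not. Without any 1 of the 6 libraries other than the P14 cKO ones, the call was lost for Meioc (adjusted p 0.0566 to 0.109), Ifi27l2a (0.0594 to 0.118), Zpbp (0.0868 to 0.150), Lyz2 (0.0513 to 0.118) and Alkbh5 (0.0615 to 0.103). It was lost without 5 of these 6 for Dis3 (all but P16 cKO library 2, 0.0658 to 0.121) and C1qb (all but P14 control library 1, 0.0752 to 0.156). For Ermp1 it was lost without P16 cKO library 2, P14 control library 1 or either P16 control (0.0836 to 0.127). For Ythdc2 it was lost without P16 control library 1 (0.0511), and for Igf2bp3 without P16 control library 2 (0.0557). Zpbp was not called by DESeq2 either (adjusted p = 0.0714), and DESeq2 gave no adjusted p for Eaf2, Ifi27l2a and Pif1. With eBayes without trend the call was lost for all 10 of the genes just listed. It was also lost in that fit for Tex11, Tex15, Taf7l, Gdnf, Ctcfl and Adarb1 (limma adjusted p 0.0504 to 0.0617).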

How the results depend on the processing

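The Ythdc2 change was between -1.81 and -1.51 under every alternative run. The call was lost with eBayes without trend (-1.60, limma adjusted p = 0.665, 0 genes lower) and with no filter on low values (-1.60, adjusted p = 0.600, 0 genes lower). Leaving out 1 library gave -1.70 to -1.51, with 0 to 3 genes higher and 0 to 1 lower. DESeq2 called 3 higher and 3 lower. The fit over the 8 libraries of both stages called 1 higher. With the replicate number as a block, 2 genes were called higher (Aqp1 and Meioc) and 3 lower (Ythdc2, Ndor1 and Hbb-bs). Same-numbered libraries deviated together (correlation 0.203 over genes at P14, 0.0798 at P16), but the labels do not pair them. Interactions were 29 higher and 113 lower with eBayes without trend, 122 and 605 with no filter, 1223 and 1651 with the replicate block within stage, and 51 to 1175 higher and 230 to 2032 lower without 1 library. The cause was not tested. With the 7 P14 libraries of both kits, 8 of 74 named genes had the other sign. With 2 libraries a group, differences under about 1.2-fold (a median half-width of 0.26 in log2) were within the error of a typical gene.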

Other observations

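Ndor1 and Rnf208, both among the leading lower genes at P14, are neighbours among protein-coding genes. Rnf208 differed by -0.59 at P14 and -0.86 at P16, and Ndor1 by -1.15 and -1.14. Tmem203, the next gene on the other side of Ndor1, which it overlaps, differed by -0.25 and -0.34. Tprn, the second gene on that side, differed by -0.14 and -0.17. Beyond it, Ssna1 differed by 0.02 at P14 and -0.28 at P16, and Anapc2 by -0.08 and -0.35. Past Rnf208, the nearest gene tested was Tubb4b, which differed by -0.01 and -0.10. In the third P14 cKO library, made with the other kit, Rnf208 lay 0.23 above the Cre controls and Ndor1 0.12 above. This group was looked at after its values were seen, and no explanation was tested.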
